A study of Mus musculus with 12 samples.

Results

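The nuclear genes that encode respiratory complexes II, III, IV and V, together with cytochrome c, were followed in mouse leukaemia cells. These cells carry loxP-flanked Riok2 alleles and were given hydroxytamoxifen or its vehicle. Members were all rows of the authors' comparison table whose symbol begins with Sdha to Sdhd, Uqcr, Cox4 to Cox8 or Atp5, or is Cyc1 or Cycs, and this gave 49 of 24221 rows. By symbol, complex II had 4 of these genes, complex III 9, complex IV 18 and complex V 17. These counts hold Atp5s and Atp5sl, which are not complex V subunits, and Cox7a2l, which is no fixed subunit of complex IV. Cycs is listed on its own because cytochrome c belongs to no complex. By RNA sequencing the study compared acute myeloid leukaemia cells of the C57BL/6 strain that carry the MLL-AF9 fusion oncogene and loxP-flanked Riok2 alleles (Riok2fl/fl). These cells were sampled 72 h after hydroxytamoxifen (OHT), the ligand of tamoxifen-dependent Cre recombinases, or after its vehicle ethanol (EtOH), with 3 samples each. RIOK2 is an atypical kinase of small ribosomal subunit maturation, and both groups share the fusion and the floxed alleles. No sample is of OHT-treated cells without floxed Riok2. Effects of OHT itself, of Cre and of Riok2 loss therefore cannot be told apart. The labels name neither the Cre nor the number of clones behind the cells, and whether replicates came from separate cultures is not said, so every p-value here reflects sample-to-sample spread that could be technical alone. MLL-AF9 cells given DMSO or a RIOK2 inhibitor at 1 µM, with 3 samples each, are not analysed here.

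Respiratory complexes pass electrons along the inner mitochondrial membrane and turn the energy into a proton gradient. Complex II (succinate dehydrogenase) feeds electrons from the citric acid cycle into ubiquinone, complex III (the cytochrome bc1 complex) hands them to cytochrome c, complex IV (cytochrome c oxidase) gives them to oxygen, and complex V (ATP synthase) uses the gradient to make ATP. All subunits of complex II are nuclear genes, whereas complexes III, IV and V also hold a few subunits from mitochondrial DNA. Myeloid leukaemia cells are known to draw much of their ATP from this pathway.

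The authors' deposited table gives for each gene a base mean (normalised reads averaged over 6 libraries), a log2 fold change and its standard error, and no value per sample. Summed over all genes, the base means came to 20307732 normalised reads. Library size factors recovered from the lowest base means ran from 0.697 to 1.88. Both ends lay among the libraries on the side of folds above 0, read below as OHT. Those on the other side ran from 0.783 to 1.11. Riok2 itself stood at -3.60 ± 0.20 (log2 fold change ± SE) in the authors' deposited table, which leaves 8.25% of the EtOH level, and this sign is the basis for reading all folds as OHT over EtOH. All 8 markers of myeloid leukaemia cells were present, from Meis1 at a base mean of 1648 to Mpo at 34343, while 9 of 10 muscle markers and 4 of 6 testis markers were under 1 normalised read in the authors' deposited table. The 5 erythroid markers had a summed base mean of 23.4, with Hbb-b1 and Hba-a1 at 0 in the authors' deposited table. Of the lymphoid markers described here, Cd3e and Ms4a1 were at 0 and Cd79a (base mean 9.49) was higher in OHT. Cd3g and Ncr1 had base means of 1.64 and 1.89 and no adjusted p-value. Of the 7 fibroblast and endothelial markers, Pecam1 had 1579 normalised reads with no call, Col1a1 had 35.3 and was higher by 1.48 ± 0.55 on the log2 scale, and the other 5 were under 3 in the authors' deposited table. The leukaemia markers also moved with OHT, 3 higher and 4 lower, among them Itgam at 544% and Mpo at 19.4% of the EtOH level, and the part of such a change of cell state in the results below was not tested. Because the RNA came from bulk cultures, fewer cells of a type and less RNA per cell cannot be told apart.

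Transcripts of complexes II to V were lower in OHT, moderately and in nearly every gene. Of the 46 members with an adjusted p-value, 38 fell and 0 rose at the authors' DESeq2 adjusted p under 0.05, 8 did not pass, and 45 had a fold change below 0. At an unadjusted p under 0.05 the counts were 40 lower and 0 higher. Of all 13814 genes with an adjusted p-value in the authors' deposited table, 48.9% passed, 23.4% lower and 25.5% higher. Of the 4867 whose base mean was 1000 or more, a level that most members reach, 63.3% passed, 31.7% lower and 31.6% higher. The median log2 fold change of the tested members was -0.53, or 69.1% of the EtOH level, beside 0.05 for all genes tested and -0.01 for those at 1000 or more. Falls were small beside those of the steepest genes of the experiment. The 42 members at base means of 100 or more ranged from -1.34 to -0.11, that is from the 3.37th to the 41.7th percentile of all folds.

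**Figure D1:**
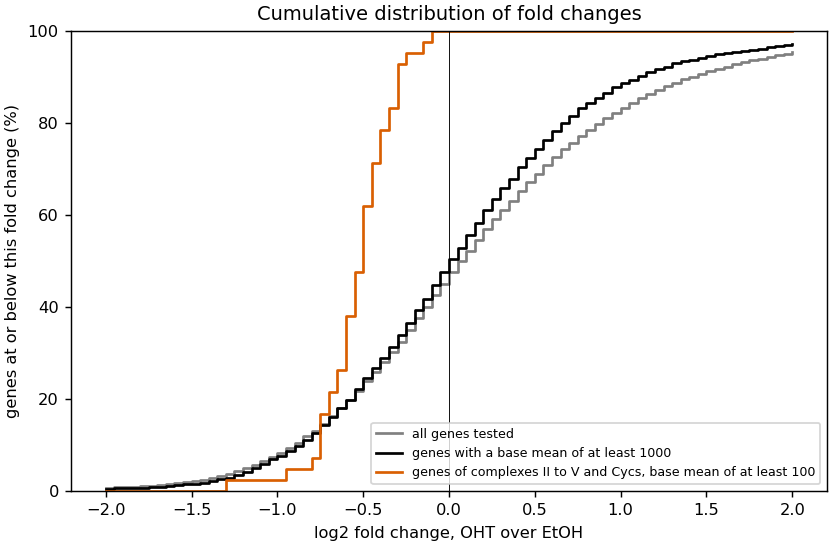
Share of genes (y axis, percent) with a log2 fold change at or below the value on the x axis, for all genes tested, for genes at base means of 1000 or more and for the 42 genes of complexes II to V and Cycs at 100 or more. The curve of the respiratory genes is steep and reaches 100% below 0, with its median at -0.53, while the other curves cross the middle near 0.

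By complex, the medians of the log2 fold change were -0.31 in complex II (4 genes tested), -0.60 in complex III (9), -0.46 in complex IV (15) and -0.58 in complex V (17). The number that fell was 2 of 4, 7 of 9, 12 of 15 and 16 of 17 in the same order, and no member rose in any of them. Genes of a complex are not replicates, and a difference between complexes was not tested. The ranges overlapped: the 4 members of complex II lay between -0.52 and -0.11, and the 17 of complex V between -0.997 and -0.35.

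**Figure D2:**
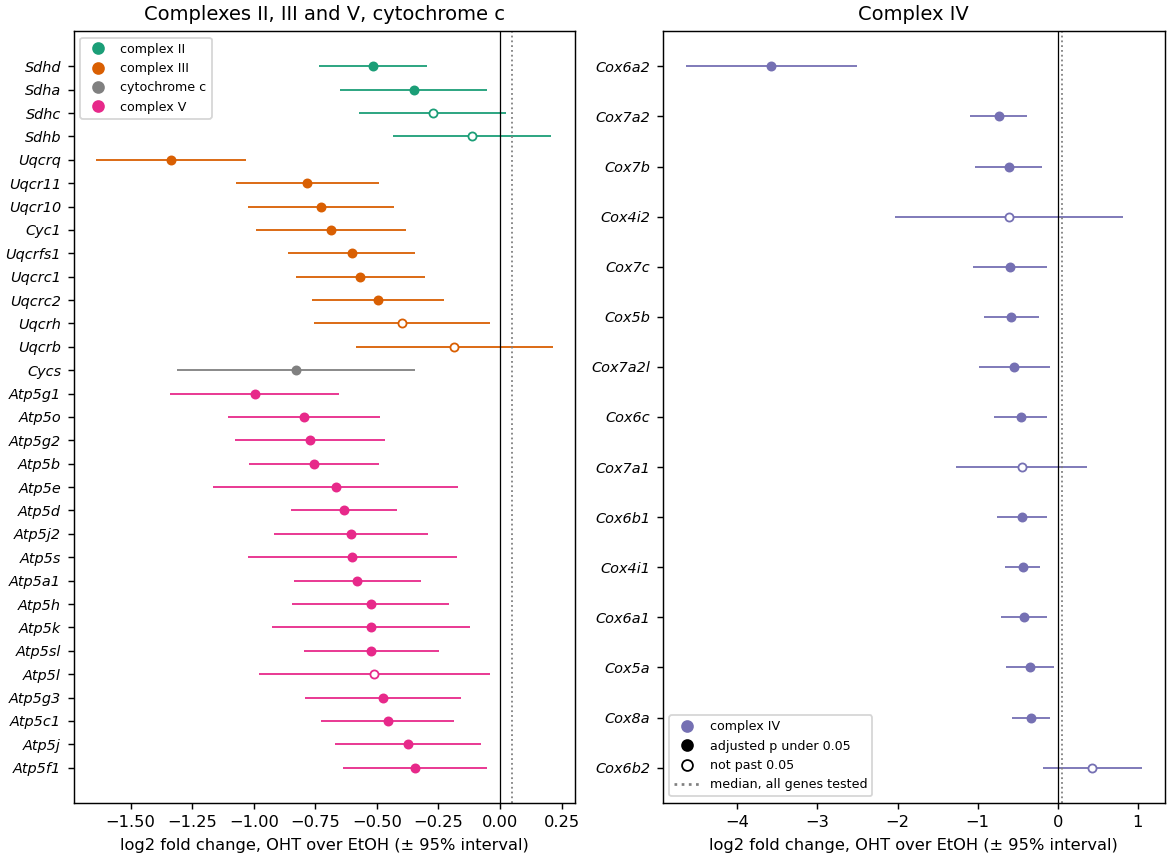
Log2 fold change (x axis, OHT over EtOH) of the 46 tested genes with 95% intervals from the authors' standard errors, filled where the adjusted p is under 0.05. The x axes of the panels differ. Points of complexes II, III and V all lie left of 0 and left of the dotted median of all genes, and Cox6b2 is the sole gene to the right of 0.

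Complex II had the smallest median fall, with 2 of its 4 genes past the threshold. Sdhd, a membrane anchor, fell to 69.9% of the EtOH level in the authors' deposited table (log2 fold change -0.52 ± 0.11, adjusted p = 1.66e-05). Sdha, the flavoprotein that oxidises succinate and the most abundant of the 4 by base mean (6092), fell by 0.35 ± 0.15 on the log2 scale with an adjusted p of 0.045, close to the threshold. The other anchor, Sdhc, had -0.27 ± 0.15 in the authors' deposited table (adjusted p = 0.13). Sdhb, the iron-sulphur subunit that passes electrons from Sdha to the anchors (GRCm38 chromosome 4, 140961203 to 140979193, plus strand), had -0.11 ± 0.16 in the same table, with an adjusted p of 0.59. Its 95% interval ran from -0.43 to 0.21, so a fall below 74.0% of the EtOH level lies outside it. A gene with the error of Sdhb would have needed a change of 0.37 to pass. All 4 intervals of complex II held the complex's median, and no 2 of them were apart. Here and below, overlap of intervals does not show equal falls, and differences between genes were not tested.

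Complex III held the steepest fall among abundant members. Uqcrq, a small subunit beside cytochrome b (GRCm38 chromosome 11, 53427922 to 53430831, minus strand), fell by 1.34 ± 0.15 on the log2 scale (adjusted p = 1.61e-16) at a base mean of 3122 in the authors' deposited table. This left 39.6% of the EtOH level (95% interval 32.1 to 48.9%). Its interval was apart from those of 7 of the other 8 subunits of the complex and overlapped that of Uqcr11. Intervals of all other pairs in complex III overlapped.

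The electron carriers of complex III fell to like levels. Cyc1, cytochrome c1, and Uqcrfs1, the Rieske iron-sulphur protein, stood at 62.2% and 65.9% of EtOH, with log2 fold changes of -0.69 ± 0.16 and -0.60 ± 0.13 in the authors' deposited table. The core proteins Uqcrc1 and Uqcrc2, which face the matrix, followed at 67.5% and 70.9%. The small subunits were more spread, since Uqcr11 (-0.78 ± 0.15) and Uqcr10 (-0.73 ± 0.15) fell while the hinge protein Uqcrh (-0.40 ± 0.18, adjusted p = 0.057) and the quinone-site subunit Uqcrb (-0.19 ± 0.20, adjusted p = 0.47) did not pass in that same deposited table of the authors. The 95% interval of Uqcrb ran from -0.59 to 0.21 and just missed the median of its complex, -0.60, which the intervals of 7 of the 9 members held. In the authors' deposited table Cycs, the soluble carrier between complexes III and IV, fell by 0.83 ± 0.25 (adjusted p = 0.0023).

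All 10 commonly expressed subunits of complex IV fell, within a narrow band from -0.74 to -0.33. Cox7a2, a small subunit on the membrane side, led them at 59.9% of EtOH in the authors' deposited table (log2 fold change -0.74 ± 0.18, adjusted p = 0.000174). Cox4i1, the regulatory subunit with the highest base mean of the complex (7428), fell by 0.44 ± 0.11 in the same table, to 73.9% of EtOH. Cox5b, which binds zinc on the matrix side, stood at 67.0%, and the matrix subunit Cox5a at 78.7% with an adjusted p of 0.049, just under the threshold. Cox8a, the smallest change of the 10, stood at 79.3% in the authors' deposited table (-0.33 ± 0.12, adjusted p = 0.013). The remaining 5, Cox6a1, Cox6b1, Cox6c, Cox7b and Cox7c, lay between 65.4% and 74.6%. None of the 55 pairs among the 11 abundant genes of the complex had intervals apart, which does not show that they fell alike. Cox7a2l, known as a supercomplex factor and no fixed subunit, fell by 0.54 ± 0.23 (adjusted p = 0.036) in the authors' deposited table. Whether it joins complexes III and IV in these cells was not tested.

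Tissue-restricted isoforms of complex IV were rare in these cells, and 1 of them fell steeply. Cox6a2, the heart and skeletal muscle form of Cox6a (GRCm38 chromosome 7, 128205435 to 128206387, minus strand), stood at -3.58 ± 0.55 on the log2 scale (adjusted p = 6.26e-10) in the authors' deposited table, at a base mean of 59.2. That is 8.39% of the EtOH level (95% interval 3.99 to 17.6%), lower than any other member and at the 0.0579th percentile of all folds. With the authors' prior on folds removed approximately, its value moved to -7.70, but the same step took Cox4i2 from -0.61 to -10.76 and so is not reliable at large standard errors. The size of the fall of Cox6a2 is therefore uncertain. The muscle markers listed for comparison were at or near 0, with a summed base mean of 4.01 over 10 genes. The opposite-strand neighbour Itgad shares 70 transcript bases with Cox6a2 and stood at -0.06 ± 0.66 on the log2 scale, at a base mean of 12.7, in the authors' deposited table.

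The other isoforms gave no call. Cox6b2, a testis form, had a base mean of 70.0 and the sole fold above 0 (0.43 ± 0.32, adjusted p = 0.26), and Cox7a1, a muscle form, had 39.6 and -0.45 ± 0.42 (adjusted p = 0.38) in the authors' deposited table. Cox4i2, a lung and hypoxia form, had a base mean of 6.41, which resolves into 42 whole reads. In normalised reads it had 4.80, 7.90 and 0 in the 3 libraries on the side of folds above 0 and 13.5, 4.60 and 7.66 in those on the other side, so the sides overlapped. Cox7b2 had 1 read in 1 library, Cox8b 1 read in another, and Cox8c a base mean of 0, all without an adjusted p-value. Per kilobase of transcript and averaged over both groups, Cox4i2 made up 0.0883% of the summed level of its pair, Cox6a2 1.47% and Cox6b2 2.7%. Because Cox6a2 fell more than Cox6a1, this average describes neither EtOH nor OHT alone for that pair.

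**Figure D3:**
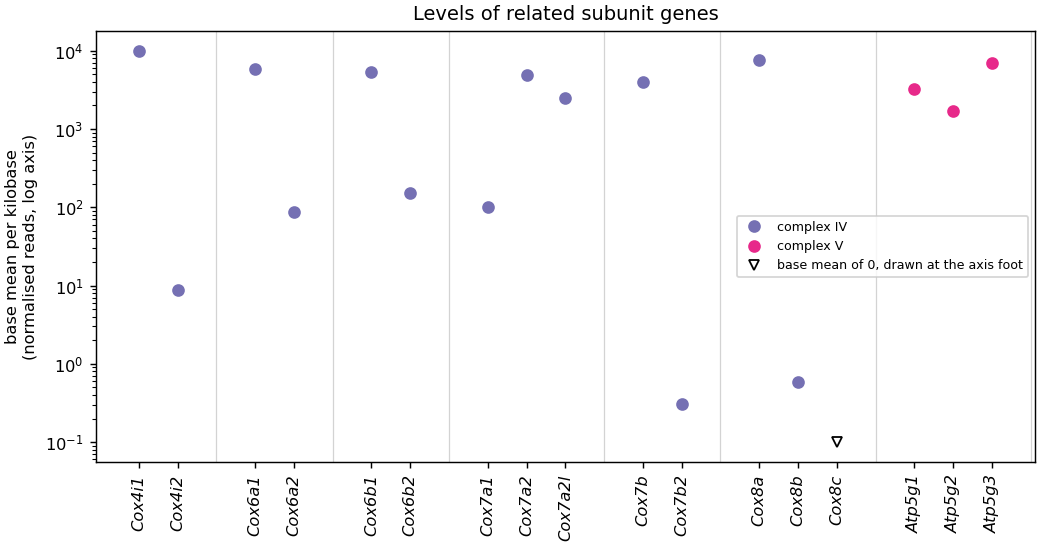
Base mean per kilobase of transcript (y axis, log scale) of genes for related subunits, grouped by family, with complex IV in violet and complex V in pink. Cox4i2, Cox6a2, Cox6b2 and Cox7a1 lie at 8.82 to 150 normalised reads per kilobase, below partners at 4907 to 9970, and the c-subunit genes of complex V lie closer to each other.

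Of the 17 genes named for complex V 16 fell, and 14 did with the 2 that are not subunits left out. Falls lay in each part of the enzyme described here. In the F1 head, where ATP is made, all 5 genes fell: the catalytic beta subunit Atp5b, the most abundant member of all at a base mean of 24759, stood at 59.2% of EtOH (log2 fold change -0.76 ± 0.13, adjusted p = 1.43e-07), and the delta subunit Atp5d was at 64.4% in the authors' deposited table (-0.63 ± 0.11, adjusted p = 7.03e-08). The alpha subunit Atp5a1 (base mean 20738) was at 66.9%, the epsilon subunit Atp5e at 63.0% and the gamma shaft Atp5c1 at 72.9%. All 4 genes of the peripheral stalk, which holds the head still, fell too. There Atp5o, which caps the stalk, stood at 57.6% (-0.79 ± 0.16 in the authors' deposited table), Atp5h at 69.5%, Atp5j at 77.2% and Atp5f1 at 78.6%, the mildest fall of the complex with an adjusted p of 0.042.

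The rotor ring of complex V is made of c-subunits from 3 genes that encode the same mature protein. Atp5g1 (GRCm38 chromosome 11, 96068852 to 96075670) fell by 0.997 ± 0.176, the steepest value of the complex, Atp5g2 (chromosome 15, 102662864 to 102672352) by 0.77 ± 0.16 and Atp5g3 (chromosome 2, 73908447 to 73911326), all on the minus strand, by 0.47 ± 0.16 on the log2 scale in the authors' deposited table. These leave 50.1%, 58.5% and 72.0% of the EtOH level, with 95% intervals of 39.5 to 63.6%, 47.4 to 72.3% and 57.8 to 89.7% that overlap. Per kilobase, Atp5g3 made up 58.6% of the summed level of the trio, Atp5g1 26.9% and Atp5g2 14.4%. Principal transcripts run from 596 to 4715 bases for Atp5g1 and from 441 to 731 for Atp5g2. The shortest were used, and these shares depend on that choice. Of stretches of 50 bases, 100% in Atp5g3, 34.0% in Atp5g1 and 0% in Atp5g2 occur in no other gene. The shares and their order therefore also depend on how reads with several matches were counted, which is not known. Of the 136 pairs of intervals in complex V, 1 was apart, that of Atp5g1 and Atp5f1. Among the small membrane subunits, which shape the dimer, Atp5j2 (65.8% of EtOH) and Atp5k (69.5%) fell, while Atp5l had -0.51 ± 0.24 and an adjusted p of 0.065 in the authors' deposited table. Atp5s and Atp5sl, which share the name but encode no subunit of complex V, fell to 66.0% and 69.6%.

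Levels per length differed widely between subunits. Among the same 42 members, normalised reads per kilobase of transcript ran from 142.8 for Atp5s to 12922 for Atp5b, with a median of 3742. Most subunits lay between 1614 for Cox7c and 9970 for Cox4i1. Atp5l (302 per kilobase), Cycs (375) and Sdhc (769) were the lowest of the genes for subunits and carriers, and Sdhb stood at 1973.

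**Figure D4:**
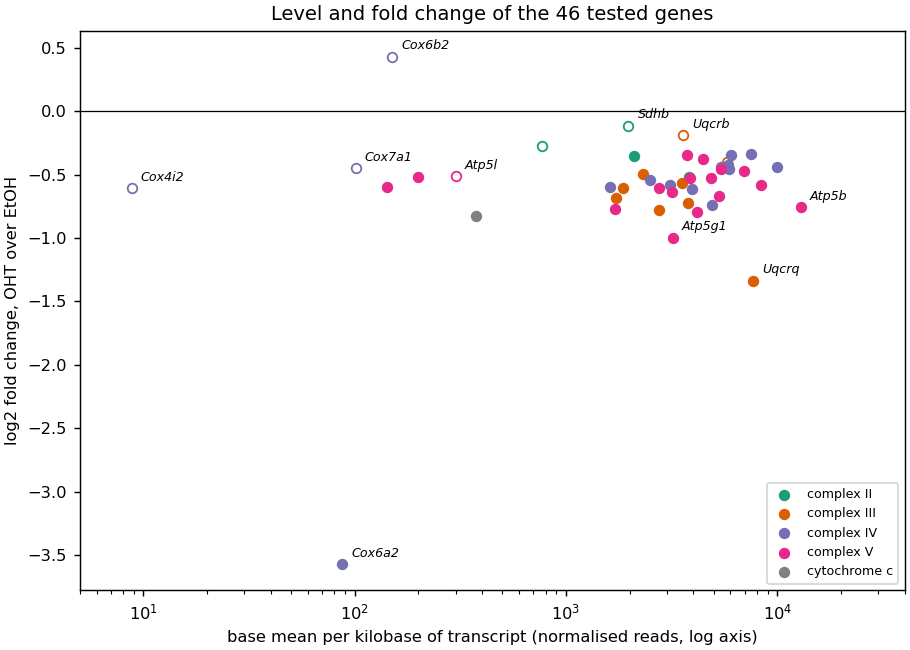
Base mean per kilobase (x axis, normalised reads, log scale) against the log2 fold change (y axis, OHT over EtOH) of the 46 tested genes, filled where the adjusted p is under 0.05. Most genes crowd between -1 and 0 at 1614 per kilobase and above, Uqcrq lies below them at -1.34, and the isoforms at the left are scattered from Cox6a2 at -3.58 to Cox6b2 at 0.43.

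Several members share sequence with copies elsewhere in the genome, which bears on how exactly their reads were counted. Every stretch of 50 bases of the annotated Atp5g2 transcript also occurs in another GENCODE M21 gene (Gm10175 or Gm10231), and the share of 50-base stretches found in no other gene was 15.2% for Atp5l, 34.0% for Atp5g1, 47.0% for Cox7c, 49.5% for Atp5h and 49.7% for Atp5o. In Atp5o only 19.1% of stretches recur elsewhere in the genome, and the rest of its sharing is with annotated genes that overlap it. Cycs shared stretches with 76 other gene names and kept 71.5% of its own. Levels and folds of these genes are therefore uncertain, since the sources used here do not say how reads with several matches were treated. For 22 of the 49 members every stretch was their own, among them Uqcrq, Cyc1, Sdhb and Sdhd, and of the 19 tested in this group 15 fell with a median log2 fold change of -0.57. The 6 tested members with under 50% had 5 falls and a median of -0.68. The 1 copy of Cox7c with an adjusted p-value, Gm12338, stood at -0.21 ± 0.55 on the log2 scale, at a base mean of 18.7, in the authors' deposited table.

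Exons of 10 members overlap those of another gene, 9 of them on the opposite strand alone, and without a stated strand setting reads there cannot be told apart. The Atp5f1 transcript shares 337 bases with Wdr77, which fell by 1.19 ± 0.15, and Cox4i1 shares 134 with Emc8, which fell by 0.47 ± 0.13 in the authors' deposited table. Atp5j shares 182 bases with Gabpa (-0.20 ± 0.11 in the same table). Of these 10 members 8 fell, with a median of -0.47, and the part of the neighbours in their values was not tested.

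Genes listed for the assembly of the complexes were lower as well. The list is broad and also counts genes that do not build a complex themselves, such as Atpif1 and Lrpprc. The assembly list held 36 tested genes of known role, of which 27 fell, 0 rose and 9 did not pass (median log2 fold change -0.57), beside 23.4% lower among all tested genes and 31.7% among those at base means of 1000 or more. At an unadjusted p under 0.05, 27 fell and 0 rose. All 6 assembly factors of complex III fell, led by Lyrm7, the chaperone of the Rieske protein (-1.31 ± 0.33), and including Uqcc2 (-0.97 ± 0.16) and Uqcc1 (-0.89 ± 0.13), which guard newly made cytochrome b, in the authors' deposited table. Of 23 tested for complex IV 16 fell, among them Coa7 (-0.94 ± 0.20), Cox16 (-0.94 ± 0.20) and Lrpprc (-0.71 ± 0.14), which stabilises mitochondrial messenger RNAs and was the most abundant of those that fell. The most abundant of the complex IV factors, Coa5, stood at -0.06 ± 0.19 in the authors' deposited table (adjusted p = 0.82), and the haem a insertion factor Surf1 at -0.06 ± 0.18 (adjusted p = 0.79). For complex V 3 of 4 fell, led by Atpif1 (-0.81 ± 0.14), an inhibitor of the enzyme and not an assembly factor. For complex II, Acn9 (the older name of Sdhaf3, -1.21 ± 0.30) and Sdhaf1 (-0.68 ± 0.16) fell and Sdhaf2, which inserts the flavin of Sdha, stood at 0.03 ± 0.13 in the authors' deposited table (adjusted p = 0.87). BC004004 was listed too, its role here is not known, and it had -0.34 ± 0.16 (adjusted p = 0.060) in that table.

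Subunits of complexes IV and V that carry other names fell in the same range. Usmg5 and 2010107E04Rik, small proteins of the ATP synthase, had log2 fold changes of -0.81 ± 0.24 and -0.75 ± 0.18, and Ndufa4, now counted with complex IV, -0.46 ± 0.16 in the authors' deposited table (adjusted p = 0.013). The 6 listed subunits from mitochondrial DNA are not analysed here.

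Among 16 listed regulators of respiratory gene expression 8 fell, 2 rose and 6 did not pass (median -0.33). With both directions pooled, this share of calls lies near the background, where 48.9% of all tested genes and 63.3% of those at base means of 1000 or more passed. By direction the background was 23.4% lower and 25.5% higher among all tested genes. Among those at 1000 or more it was 31.7% and 31.6%. The list held more falls and fewer rises than these shares, a difference that was not tested. The falls were led by Peo1, the helicase of mitochondrial DNA (-1.24 ± 0.15), Tfb1m, a methyltransferase of mitochondrial ribosomal RNA (-1.11 ± 0.24), and Tfam, which packages and transcribes mitochondrial DNA (-0.87 ± 0.15), in the authors' deposited table. Polg, the mitochondrial DNA polymerase (0.58 ± 0.23, adjusted p = 0.027), and the nuclear receptor Esrra (0.30 ± 0.12, adjusted p = 0.034), rose in that table. In the authors' deposited table Hcfc1, the most abundant of the list, stood at 0.22 ± 0.22 (adjusted p = 0.44). Of the factors that bind promoters of respiratory genes, Yy1 (-0.38 ± 0.13, adjusted p = 0.010) and the GABP beta subunit Gabpb1 (-0.44 ± 0.15, adjusted p = 0.0081) fell, whereas Nrf1 (-0.29 ± 0.14, adjusted p = 0.061) and Gabpa (-0.20 ± 0.11, adjusted p = 0.11) did not pass in the authors' deposited table. The other GABP beta gene, Gabpb2, was more abundant than Gabpb1 (base means of 3022 and 1500) and stood at 0.03 ± 0.15 in the authors' deposited table (adjusted p = 0.88). Of the PGC-1 coactivators, Pprc1 was by far the most abundant and fell by 0.72 ± 0.13 on the log2 scale at a base mean of 1110 in the authors' deposited table. Ppargc1b had a base mean of 71.0 there and stood at -0.02 ± 0.43, and Ppargc1a was barely present, at 3.62.

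**Figure D5:**
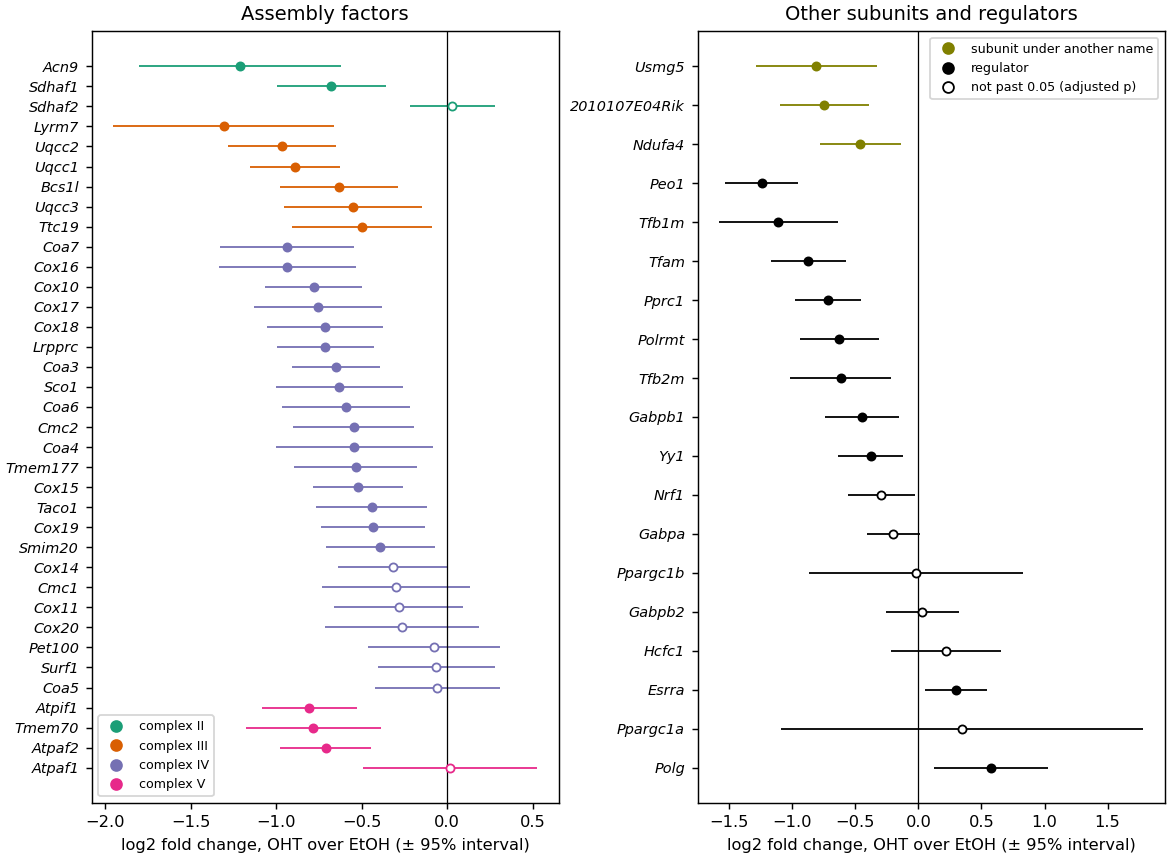
Log2 fold change (x axis, OHT over EtOH) with 95% intervals from the authors' standard errors, filled where the adjusted p is under 0.05. The left panel holds the assembly list of complexes II to V, and the right panel subunits under other names and regulators. All 6 factors of complex III lie left of 0, the complex IV factors reach from -0.94 to -0.06, and Polg and Esrra lie right of 0.

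Promoters of the members, whether or not they fell, were searched for motifs of NRF1, GABP and YY1 and for the E-box. RefSeq windows from 250 bases before to 50 after the start (GRCm38.p6) were found for 38 of the 49 members. The strings were GCGCA and GCGC with any base between them for NRF1, CCGGAAGT for ETS factors such as GABP, AAGATGGCG for YY1 and the E-box CACGTG, on both strands, and no string contains another. NRF1 letters stood in windows of 10 of the 38 members (26.3%) and of 5.19% of all 27025 genes with a window, ETS letters in 4 (10.5% against 4.31%), YY1 letters in 3 (7.89% against 1.64%) and the E-box in 5 (13.2% against 8.09%). Windows of the members also held more G and C, with a median of 56.5% against 52.7%. The 10 with NRF1 letters were Atp5c1, Atp5g2, Atp5g3, Atp5h, Atp5k, Atp5o, Cox6a1, Sdha, Sdhd and Uqcrc1. All of them fell, as did 38 of the 46 tested members. Those with YY1 letters fell too, whereas Uqcrh with ETS letters and Atp5l with the E-box did not pass. A link between letters and falls was not tested. A match is a description of letters and shows no binding. The stretches below, 1 from each complex, show such a match in members that fell, and lie before the annotated gene. Each is on the minus strand of GRCm38.p6, written 5′ to 3′ along the gene with the matched letters in capitals.
Sdhd (complex II, NRF1 letters, chr9:50603894-50603953): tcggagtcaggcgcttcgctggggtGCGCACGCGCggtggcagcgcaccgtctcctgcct
Uqcr11 (complex III, ETS letters, chr10:80406855-80406912): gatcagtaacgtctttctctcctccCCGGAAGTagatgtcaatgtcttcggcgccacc
Cox6a1 (complex IV, NRF1 letters, chr5:115349086-115349145): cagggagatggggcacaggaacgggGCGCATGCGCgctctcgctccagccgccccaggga
Atp5h (complex V, NRF1 letters, chr11:115420026-115420085): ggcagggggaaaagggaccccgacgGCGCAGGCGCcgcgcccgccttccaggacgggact
The match ends 70 bases before the start in Sdhd, 59 in Uqcr11, 153 in Cox6a1 and 132 in Atp5h, and these genes stood at 69.9%, 58.1%, 74.6% and 69.5% of the EtOH level.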

How the data were processed

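The authors deposited 1 comparison table with 24221 rows. The submitters' processing notes list DESeq2, DESeq, HTSeq 0.9.1, STAR 2.7.2b and Trimmomatic 0.38.0, with the mm10 genome; the sources used here give neither annotation nor counting options. Its columns hold, checked on the values, the deposited base mean (a signal in normalised reads), log2 fold change and standard error, Wald score, p-value and adjusted p-value. The deposited score equals fold over standard error within 7.56e-08. No column holds values per sample, so the third form of the planned test applied: the authors' adjusted p-value under 0.05, with no test of samples. Of the members, 46 had an adjusted p-value, 2 had a p-value alone and 1 neither. Standard errors do not exceed 0.747, so a prior is assumed to have shrunk the folds.

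Percentages of the EtOH level are 2 to the power of the deposited fold, and 95% intervals use its standard error. Lengths, positions and 50-base stretches came from GENCODE M21 (GRCm38), on the best-supported principal transcript. Where support was equal the shortest was taken, and levels per kilobase depend on this choice. Whole reads of low members were solved from the base mean within 5e-09, which covers counting only. Adjustments were tested on simulated data. Prior removal was run there too, but with the same standard error for all genes and a known prior. Its accuracy on these data, where the prior is inferred, was not tested. Members and lists were chosen with earlier results of these data known. Every member could be named; of further lists the 2 steepest changes each way and the most abundant gene; the other assembly factors and regulators in the text were picked after their values were seen. Analyses used Python 3.11.15, pandas 2.3.3 and scipy 1.17.1. The planned comparison of isoform proteins was not run, and protein sequences are not used here. One lymphoid marker is not reported here.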

Additional observations from a re-analysis of the deposited data

How the results depend on the processing

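The count of 38 falls fell to 25 at an adjusted p under 0.01 and to 11 under a Holm adjustment over all tested genes. At 0.01, complex II kept 1 fall and complex IV 5. Under Holm, complex II had 1, complex III 4, complex IV 1 and complex V 5. With a minimum log2 change of 0.5, complex II had 1 and complex IV 6. These settings are stricter by construction. The other counts under these 3 settings stayed within 1.5 times of the main ones. So did all counts at a threshold of 0.1, with adjustment over genes at base means of 100 or more, and on leaving out non-subunits, standard errors above 0.5, shared sequence or overlapping exons, the last pair of these chosen after seeing the data. Medians moved by less than the median standard error under the same omissions, with members at base means of 100 or more alone, and under prior removal, centring and weighting. Counts were not recomputed for prior removal, centring or weighting. No tested member changed its direction on centring or prior removal, but neither step could have changed one, so this is no test of direction. Centring subtracted from each fold the median of genes at base means of 100 or more, -0.0212. The smallest tested fold in size was larger, -0.114 for Sdhb. Prior removal multiplied each fold by a positive factor, which keeps the sign. No paired analysis was possible because the deposited table has no columns per sample; for the same reason no replicate could be left out, and neither other normalisations nor count tests were run. With 3 samples a group, standard errors were 0.11 to 0.25 in members at base means of 100 or more. The log2 change needed to pass ran with them, from 0.25 for Cox4i1 to 0.57 for Atp5e.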

Other observations

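Across the 42 members at base means of 100 or more, the authors' standard error was smaller where the base mean was higher (Spearman's rho -0.55) and less closely tied to transcript length (rho -0.33). The log2 fold change went weakly with base mean (rho 0.30, Pearson's r 0.11 on the log2 scale) and hardly with the share of unshared 50-base stretches (rho -0.0038). These are descriptions across genes of the same 6 libraries, and genes are not independent replicates.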
